A study of Mus musculus with 72 samples.

Results

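The miRNAs described here are 8 that are known from white blood cells: mmu-miR-142a-3p and its opposite arm mmu-miR-142a-5p, the lymphocyte miRNA mmu-miR-150-5p, the myeloid miRNA mmu-miR-223-3p, mmu-miR-155-5p and mmu-miR-146a-5p of immune activation, mmu-miR-342-3p and mmu-miR-181a-5p, named below without the species prefix. The list was drawn up by name, with earlier results of these data known. The authors had listed both arms of miR-142a, miR-342-3p and miR-223-3p as falling with dose in these livers. Counts of these miRNAs, above all in the liver, are therefore not independent of the choice. All probes of the mouse miRNA array that carry one of these names were taken. This gave 16 probes out of 4415 and 8 miRNAs out of 1881, with 2 probes for each miRNA. Liver and lung came from female C57BL/6 J mice of 6 to 8 weeks, taken 48 h after a single whole body irradiation (WBI) with X-rays. Doses at the body surface ran from 1 Gy through 2, 4 and 8 to 12 Gy. Sham irradiated mice in containers of the same type made up the 0 Gy group. Each dose had 3 mice, and each tissue had 18 miRNA arrays and 18 mRNA arrays of the 1-colour Agilent kind, so that 36 miRNA arrays were read for these miRNAs. The organs were powdered whole, so each value is that of all cells in the organ, blood included unless it was washed out, which the sources used here do not say.

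A miRNA is a short RNA that guides a silencing complex to messenger RNAs, chiefly through its seed, bases 2 to 8. The miR-142 hairpin is made throughout the blood lineage and gives a product from each arm. miR-223 belongs to granulocytes and other myeloid cells, and miR-150 to mature B, T and NK cells, which are known as radiation-sensitive cells. miR-155 and miR-146a are made when immune cells are activated through NF-kB, with miR-155 sustaining the response and miR-146a restraining it. miR-342 is carried in an intron of Evl and is known from B cells and other leukocytes. miR-181a tunes T cell receptor signalling, and many cells outside the blood also make it.

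Mature sequences were found for 7 of the 8 miRNAs in the RefSeq table of mouse assembly GRCm38.p6. They are shown because the seeds, in capitals, tell which of these miRNAs could bind the same sites and which close relatives a probe has to tell apart. All are written 5′ to 3′.
miR-142a-3p: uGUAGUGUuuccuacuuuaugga
miR-142a-5p: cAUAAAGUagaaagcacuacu
miR-223-3p: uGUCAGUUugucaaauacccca
miR-155-5p: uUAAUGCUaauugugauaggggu
miR-342-3p: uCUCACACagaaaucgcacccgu
miR-146a-5p: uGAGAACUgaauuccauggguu
miR-181a-5p: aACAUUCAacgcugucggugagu
These 7 seeds all differ. Outside the 8, miR-146b-5p has the seed of miR-146a-5p, and miR-181b-5p, miR-181c-5p and miR-181d-5p have that of miR-181a-5p. The closest pair is shown by the relative of miR-146a-5p, which is the same at 20 of 22 positions.
miR-146b-5p: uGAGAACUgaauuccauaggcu

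Both arms of miR-142 lie on the plus strand of chromosome 11 in the Mir142 gene, at chr11:87756867-87756887 for miR-142a-5p and chr11:87756903-87756925 for miR-142a-3p. The annotation also places Mir142b over this stretch. miR-223-3p lies at chrX:96242884-96242905 on the plus strand, within the span of F630028O10Rik. miR-155-5p lies at chr16:84714143-84714165 on the plus strand, within Mir155hg, the transcript it is cut from. miR-342-3p lies at chr12:108658680-108658702 on the plus strand, within Evl (chr12:108554681-108688516). miR-146a-5p lies at chr11:43374435-43374456 on the minus strand. miR-181a-5p has identical copies at chr1:137966468-137966490 and chr2:38852741-38852763, both on the plus strand, the latter within the spans of Nr6a1 and Nr6a1os, and a probe reads both.

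A level below is the log2 of a probe's background-corrected intensity after quantile normalization over the 18 arrays of its tissue, and the brighter of the 2 probes stands for a miRNA. Levels of different miRNAs are not set against each other, since probes differ in brightness. A change is a difference of log2 levels from limma over 6 dose groups, with its standard error (SE), and "called" means an absolute change above 1 with a Benjamini-Hochberg adjusted p below 0.05. "Passed" means the adjusted p alone. The dose trend is the fitted slope times 12 Gy. In the lung all 8 miRNAs were tested, with all 16 probes. In the liver 6 were tested, with 11 probes, since miR-150-5p and miR-155-5p were well above background on 0 of 18 liver arrays.

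Some features of the whole series touch these results. Of the liver miRNA arrays 3 stood apart, 1 at 2 Gy (sample 3) and 2 at 12 Gy (samples 16 and 26), with 12.5% to 16.9% of spots well above background against 7.45% to 10.4% on the other 15. Liver results that rest on them are given with and without them. The 36 miRNA arrays lay on 5 slides, and dose and slide went together: all lung arrays at 0 and 1 Gy lay on slide 3, those at 2 Gy on slide 5 and those at 8 and 12 Gy on slide 4, with the 4 Gy arrays on slides 4 and 5. In the lung, slide and dose therefore cannot be told apart between 0 Gy and doses from 2 Gy up. The series' design text speaks of hearts where the sample labels say lung, and the 7 lung epithelial mRNAs checked were well above background on all 18 lung mRNA arrays. Nothing in the labels says that replicates came from separate experiments, so the p-values measure the spread between the 3 samples of a dose.

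In the lung, irradiation was followed by lower levels of 7 of the 8 miRNAs at 12 Gy and of none higher. miR-142a-3p, miR-142a-5p and miR-150-5p fell by a log2 change of 1.56 to 1.88. miR-155-5p also fell, by less than 1 on that scale. So did miR-223-3p, miR-342-3p and miR-146a-5p, except that scaling to the 75th percentile over all probes turned these 3 to 0.13, 0.29 and 0.48. Of the spots on a lung array 14.5% to 17.6% were well above background, so that percentile lay among spots that were not. Scaling to the 75th percentile over detected probes reversed none of the lung results that passed. miR-181a-5p did not pass at 12 Gy. At 12 Gy 3 of 8 were called lower and 7 of 8 passed as lower, against 0.919% and 8.14% of the 762 lung probes tested. The count of called miRNAs was 0 at 1 Gy, where 0% of lung probes were called lower. At that dose 6 of the 8 had an unadjusted limma p below 0.05, against 89 of the 762 probes, and 2 passed (1.05% of probes). Of the trends 7 passed as lower (8.79% of probes). At 2, 4 and 8 Gy 4, 5 and 6 passed as lower (4.33%, 3.28% and 4.2% of probes). The called count was 2 at 2 Gy (0.525% of probes) and 3 at 4 Gy (0.787%), at 8 Gy (0.787%) and for the dose trend (0.656%). Under the 75th percentile over all probes the called counts became 0 at each of these doses and for the trend, and with slide as a fixed term the trend count became 0. The median change of the 8 at 12 Gy was −0.74, against 0.07 for all lung probes. Counted as probes, these miRNAs made up 6 of the 7 lung probes called lower at 12 Gy, and all 4, 6 and 6 at 2, 4 and 8 Gy.

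**Figure D1:**
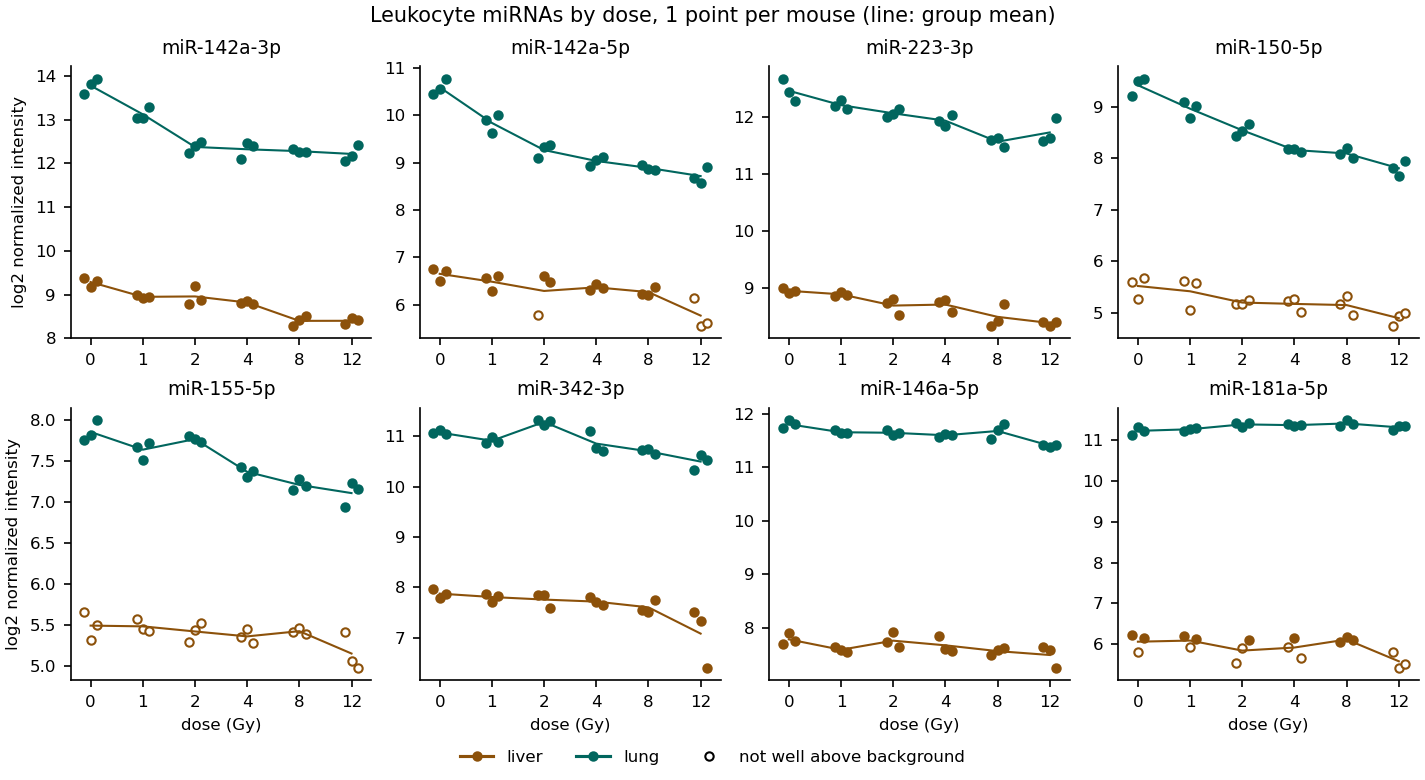
Level of each of the 8 miRNAs (log2 of the normalized intensity, vertical axis) in every liver and lung sample by dose (0 to 12 Gy, equally spaced), with an open symbol where the probe was not well above background. The lung points of miR-142a-3p drop from 13.58 to 13.94 at 0 Gy to between 12.06 and 12.43 at 12 Gy, those of miR-181a-5p stay between 11.13 and 11.49, and those of miR-223-3p, miR-342-3p and miR-146a-5p are lower at 12 Gy on this scale, which scaling to the 75th percentile over all probes turns around.

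For mmu-miR-142a-3p, the 3 lung samples at 0 Gy read 13.58, 13.82 and 13.94. At 1 Gy they read 13.04, 13.05 and 13.28, and at 2 Gy 12.24, 12.40 and 12.49. The groups at 0, 1 and 2 Gy did not overlap, and each step was downward. The change was −0.66 at 1 Gy (SE 0.121, limma adjusted p 0.00844), and −1.40 at 2 Gy (adjusted p 2.18e-06). The 1 Gy result was lost without the 1 Gy replicates 2 or 12 (limma adjusted p 0.0563 and 0.051). From 2 Gy the level stayed flat: samples read 12.11 to 12.46 at 4 Gy, 12.26 to 12.32 at 8 Gy and 12.06 to 12.43 at 12 Gy, and these groups overlapped that at 2 Gy. At 12 Gy the change was −1.56, a level 2.95-fold lower (adjusted p 2.97e-07). The trend was −1.16 (SE 0.28, adjusted p 0.00824), smaller than the change at 12 Gy since it fits a straight line to a drop most of which was seen by 2 Gy. The 2 Gy arrays lay on another slide than those at 0 and 1 Gy.

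The other arm, mmu-miR-142a-5p, moved in the same way. Its lung samples read 10.45, 10.56 and 10.78 at 0 Gy. They read 9.63, 9.90 and 10 at 1 Gy, and 9.10, 9.34 and 9.37 at 2 Gy. At 12 Gy the readings were 8.57, 8.69 and 8.90. No sample at 1 Gy or above reached the lowest control sample. The change was −0.75 at 1 Gy (SE 0.116, adjusted p 0.00205) and grew to −1.88 at 12 Gy, 3.67-fold lower (adjusted p 4.21e-08), with a trend of −1.49 (SE 0.261, adjusted p 0.00109).

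mmu-miR-150-5p, the miRNA of mature lymphocytes, had a more even descent. Its lung samples read 9.22, 9.49 and 9.55 at 0 Gy and 8.78, 9.02 and 9.09 at 1 Gy. They read 8.43 to 8.67 at 2 Gy, 8.12 to 8.19 at 4 Gy, 8.00 to 8.20 at 8 Gy, and 7.67, 7.81 and 7.95 at 12 Gy. The 4 and 8 Gy groups overlapped, and all other neighbouring doses were apart. The change of −0.46 at 1 Gy did not pass (adjusted p 0.0517, and 0.0153 without the 0 Gy replicate 1). At 2 Gy it was −0.87 (adjusted p 9.77e-05), at 4 Gy −1.26 (adjusted p 1.04e-06), and at 12 Gy −1.61, 3.06-fold lower (adjusted p 5.39e-08), with a trend of −1.37 (SE 0.189, adjusted p 0.000186).

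Steps between neighbouring doses were tested as well. From 1 to 2 Gy in the lung, 3 of the 8 passed as lower (3.02% of probes): miR-142a-3p (−0.75, adjusted p 0.00289), miR-142a-5p (−0.58, adjusted p 0.0081) and miR-150-5p (−0.42, adjusted p 0.0202). Of the 8, 1 passed as higher, miR-342-3p (0.37, adjusted p 0.0199), with 13.6% of probes higher in that step. For 4 against 2, 8 against 4 and 12 against 8 Gy, 0 of the 8 passed in limma (0%, 0% and 0.262% of probes either way). In these steps 3, 1 and 3 of the 8 had an unadjusted limma p below 0.05, against 79, 16 and 109 of the 762 probes. The largest step of the miR-142 arms thus lay at or below 2 Gy, and the order of the higher doses cannot be read beyond their spread. All lung arrays at 1 Gy lay on slide 3 and all at 2 Gy on slide 5. For that step dose and slide cannot be told apart.

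mmu-miR-223-3p, the myeloid miRNA, had lung samples at 12.28, 12.44 and 12.68 at 0 Gy. They read 12.14 to 12.31 at 1 Gy, 12.01 to 12.15 at 2 Gy and 11.85 to 12.04 at 4 Gy. At 8 Gy they read 11.48, 11.60 and 11.63, and at 12 Gy 11.58, 11.63 and 11.99. From 2 Gy up no sample reached the lowest control. The change of −0.25 at 1 Gy did not pass (adjusted p 0.409), and it was −0.40 at 2 Gy (adjusted p 0.0227), −0.53 at 4 Gy (adjusted p 0.011), −0.90 at 8 Gy (adjusted p 8.19e-05) and −0.74 at 12 Gy (SE 0.112, adjusted p 0.000398). The trend was −0.73 (SE 0.129, adjusted p 0.00109), and scaling each array to its 75th percentile over all probes turned it to 0.05, a scaling that moved the median of all lung probes at 12 Gy by 0.86. The 2 Gy result was lost without any 1 of 4 samples (the 0 Gy replicate 1 or any 2 Gy replicate, highest adjusted p 0.0715), and the 4 Gy result without the 4 Gy replicate 14 (adjusted p 0.0614).

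mmu-miR-155-5p, the activation miRNA, read 7.75, 7.82 and 8.00 in the lung at 0 Gy. It read 7.52 to 7.73 at 1 Gy, 7.74 to 7.81 at 2 Gy and 7.30 to 7.43 at 4 Gy. At 8 Gy the samples read 7.14, 7.20 and 7.29, and at 12 Gy 6.94, 7.16 and 7.23. The 2 Gy group overlapped the controls, and the groups at 1 Gy and from 4 Gy up lay below them. The change was −0.22 at 1 Gy (adjusted p 0.331), −0.09 at 2 Gy (adjusted p 0.448), −0.49 at 4 Gy (adjusted p 0.00266), −0.65 at 8 Gy (adjusted p 0.000119) and −0.75 at 12 Gy (SE 0.0848, adjusted p 2.78e-05). Its trend of −0.74 had the lowest adjusted p of the 8 (7.6e-05).

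mmu-miR-146a-5p, the other NF-kB miRNA, moved little. Its lung samples read 11.73, 11.81 and 11.88 at 0 Gy and 11.39, 11.41 and 11.42 at 12 Gy. The samples at 1, 2 and 4 Gy, from 11.57 to 11.70, also lay below every control, while those at 8 Gy spread from 11.53 to 11.81 and overlapped them. Of the 5 doses the 12 Gy change alone passed, at −0.40 (SE 0.0653, adjusted p 0.000651), with a trend of −0.27 (adjusted p 0.0129, and 0.0518 without the 12 Gy replicate 16). Under the 75th percentile over all probes these values turned to 0.48 and 0.55. The 2 Gy and 4 Gy changes of −0.16 and −0.21 passed without the 8 Gy replicate 5 (adjusted p 0.0491 and 0.0414).

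mmu-miR-342-3p was not a simple descent. Its lung samples read 11.04, 11.07 and 11.12 at 0 Gy and 10.87, 10.89 and 10.98 at 1 Gy. The 1 Gy samples lay below every control, with a change that did not pass (−0.16, adjusted p 0.519). At 2 Gy they read 11.23, 11.31 and 11.32, all above every control. At 4 Gy they read 10.70, 10.76 and 11.11, at 8 Gy 10.65 to 10.74, and at 12 Gy 10.34, 10.53 and 10.63, below every control. The 2 Gy change of 0.21 did not pass (adjusted p 0.119, and 0.0432 without the 4 Gy replicate 4), and neither did the 4 Gy change of −0.22 (adjusted p 0.127). Without that 4 Gy replicate the 4 Gy change was −0.35 (adjusted p 0.0214). The changes of −0.38 at 8 Gy (adjusted p 0.021) and −0.58 at 12 Gy (SE 0.0944, adjusted p 0.000651) and the trend of −0.61 (adjusted p 0.00111) passed on this scale, and turned to 0.27, 0.29 and 0.19 under the 75th percentile over all probes. The 8 Gy result was lost without the 8 Gy replicates 5 or 25 (adjusted p 0.0557 and 0.0593).

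mmu-miR-181a-5p stood apart from the other 7 in the lung. Its samples read 11.13, 11.23 and 11.33 at 0 Gy and 11.25, 11.34 and 11.36 at 12 Gy, and the groups overlapped. The change was 0.09 at 12 Gy (SE 0.0601, adjusted p 0.313, with a 95% interval from −0.04 to 0.22), and the trend was 0.08 (adjusted p 0.421). At 8 Gy it passed as higher by a narrow margin (0.18, adjusted p 0.0499), where 13.6% of lung probes passed as higher. That result was lost without 17 of the 18 lung samples in turn (highest adjusted p 0.178), while without the 0 Gy replicate 11 the 2 and 4 Gy changes passed as higher (adjusted p 0.0222 and 0.0394).

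In the liver 6 of the 8 miRNAs could be tested, and the first to pass did so at 4 Gy. At 12 Gy both arms of miR-142a, miR-342-3p and miR-223-3p passed as lower, and miR-146a-5p and miR-181a-5p did not. None of the 6 was called at any dose or for the trend, and 0% of the 390 liver probes were called lower in any of these comparisons. At 12 Gy 6 of 6 had an unadjusted limma p below 0.05, against 140 of the 390 probes. The number that passed as lower was 0 at 1 and 2 Gy, 1 at 4 Gy (0.256% of probes), 2 at 8 Gy (1.03%), 4 at 12 Gy (8.72%) and 4 for the trend (9.74%). At 1 and 2 Gy 1 and 2 had an unadjusted limma p below 0.05, against 24 and 21 of the 390 probes. Without the 12 Gy replicate 6, which leaves at that dose the arrays that stood apart, miR-142a-5p and miR-342-3p were called (−1.08 and −1.01). The authors, with the same thresholds, reported both arms of miR-142a and miR-342-3p as dysregulated in the liver at 12 Gy, unlike the count here. The reason for this difference was not tested. At 12 Gy the median change of the 6 was −0.68, against −0.18 for all liver probes.

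The liver samples of mmu-miR-142a-3p read 9.17, 9.32 and 9.37 at 0 Gy. They read 8.91 to 8.99 at 1 Gy, 8.79 to 9.20 at 2 Gy and 8.79 to 8.84 at 4 Gy. At 8 Gy they read 8.28, 8.41 and 8.50, and at 12 Gy 8.33, 8.41 and 8.46. All groups but that at 2 Gy lay below the controls without overlap, and the 8 and 12 Gy groups lay below all others. The change was −0.34 at 1 Gy (adjusted p 0.565), −0.47 at 4 Gy (adjusted p 0.0302), −0.89 at 8 Gy (adjusted p 6.16e-05) and −0.89 at 12 Gy, 1.85-fold lower (adjusted p 3.57e-05), with a trend of −0.84 (SE 0.104, adjusted p 5.6e-05). The step from 4 to 8 Gy passed as well (−0.42, adjusted p 0.0225; 0.256% of probes lower). Without the 3 arrays that stood apart the changes were −0.46 at 4 Gy (adjusted p 0.0224), −0.87 at 8 Gy (adjusted p 0.000109), −0.94 at 12 Gy (adjusted p 0.00108, 1 array left at that dose) and −1.01 for the trend (adjusted p 7.77e-05), which was then called. The 4 Gy result was lost without any 1 of the 0 Gy replicates 1 and 21 and the 4 Gy replicates 4, 14 and 24 (highest adjusted p 0.246).

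miR-223-3p was the next most regular in the liver. Its samples read 8.91, 8.94 and 8.99 at 0 Gy. They read 8.33, 8.42 and 8.72 at 8 Gy and 8.33, 8.40 and 8.41 at 12 Gy, below every control sample. The change was −0.46 at 8 Gy (adjusted p 0.0261) and −0.57 at 12 Gy (SE 0.0997, adjusted p 0.00173), and the trend was −0.54 (SE 0.0823, adjusted p 0.000142). Without the 3 arrays the 12 Gy change was −0.53 and did not pass (adjusted p 0.106), and the 8 Gy change and the trend did (adjusted p 0.0338 and 0.00364). The 8 Gy result was lost without any 1 of the 3 controls or the 8 Gy replicates 5 and 15 (highest adjusted p 0.161).

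In the liver at 12 Gy miR-142a-5p and miR-342-3p passed as lower with all arrays in the fit, and did not pass without the 3 that stood apart, which leaves 1 array at that dose. miR-142a-5p read 6.50, 6.70 and 6.75 at 0 Gy and 5.55, 5.62 and 6.14 at 12 Gy, where it was well above background on 0 of 3 arrays. Its change of −0.88 (SE 0.186, adjusted p 0.00591) is therefore a bound, at least 1.82-fold lower, and it was −0.55 without those arrays (adjusted p 0.105). The authors' own series values turned it to 0.47. The 12 Gy samples of miR-342-3p were 6.41, 7.33 and 7.51 against 7.79, 7.88 and 7.96 at 0 Gy, with the lowest reading on 1 of the arrays that stood apart (sample 26). Its change of −0.79 (SE 0.196, adjusted p 0.0149) was −0.46 without sample 26 (adjusted p 0.0164) and −0.38 without the 3 arrays (adjusted p 0.196). It was also lost without the 0 Gy replicate 1 (adjusted p 0.0639). For the trend both passed with those arrays (−0.71 and −0.70, adjusted p 0.00261 and 0.00308) and without them (−0.53 and −0.36, adjusted p 0.00527 and 0.0127).

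miR-146a-5p and miR-181a-5p did not pass in the liver. miR-146a-5p read 7.69, 7.76 and 7.91 at 0 Gy and 7.26, 7.58 and 7.64 at 12 Gy, groups that did not overlap, with a change of −0.29 (SE 0.111, adjusted p 0.0918) and a trend of −0.24 (adjusted p 0.0814). Without the 12 Gy replicate 6, from the array of that dose that did not stand apart, both passed (adjusted p 0.0219 and 0.0407). Over all fits that left out 1 sample they ran from −0.37 to −0.18 and from −0.30 to −0.16, and without the 3 arrays they were −0.15 and −0.17 (adjusted p 0.984 and 0.545). miR-181a-5p was well above background on 9 of 18 liver arrays and on 0 of 3 at 12 Gy, where its change was −0.48 (SE 0.159, adjusted p 0.0615), at least 1.26-fold lower. It passed without any 1 of the 0 Gy replicate 11, the 2 Gy replicates 3 and 23 and the 12 Gy replicate 6 (lowest adjusted p 0.0122), and without the 3 arrays that stood apart its change was −0.25 (adjusted p 0.915). The values of miR-150-5p and miR-155-5p, never well above background here, ran from 4.75 to 5.69 and from 4.97 to 5.65 over all doses and were not compared.

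The levels of the unirradiated organs were compared after normalizing the 36 arrays together, so these levels are on another scale than those above. At 0 Gy 7 of the 8 miRNAs were higher in lung than in liver, and 5 were called, against 49.4% and 24.2% of the 780 probes tested, whose median difference was 0.33. The liver arrays at 0 Gy all lay on slide 1 and the lung arrays on slide 3, so organ and slide went together. Over 13 settings, the main one included, miR-223-3p passed in 11 and miR-142a-5p and miR-155-5p in 12. In all 13 miR-142a-3p, miR-146a-5p, miR-150-5p and miR-181a-5p passed. miR-142a-3p read 12.13 to 12.60 in lung and 10.78 to 11.04 in liver, a difference of 1.47 (adjusted p 1.08e-11). For miR-181a-5p the difference was 2.81 (SE 0.262, adjusted p 1.37e-10), with lung samples at 9.51 to 9.68 and liver samples at 6.22 to 7.13. miR-150-5p and miR-155-5p were well above background on all 3 lung arrays and on no liver array, so their differences of 2.58 (adjusted p 1.42e-13) and 1.36 (adjusted p 2.29e-10) give bounds, at least 2.54-fold and at least 1.09-fold higher in lung. miR-142a-5p differed by 1.30 (adjusted p 0.000127), miR-146a-5p by 0.86 (adjusted p 5.13e-07) and miR-223-3p by 0.32 (adjusted p 0.00874), about the median of all probes. For miR-342-3p no difference was detected (−0.01, adjusted p 0.953, with a 95% interval from −0.44 to 0.42), and the authors' series values gave 2.33, the scanner software's total gene signal 0.59 and slide as a fixed term 0.97. Its second probe read 0.29 higher in lung (adjusted p 0.105), and the second probe of miR-146a-5p was called, at 1.37.

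**Figure D2:**
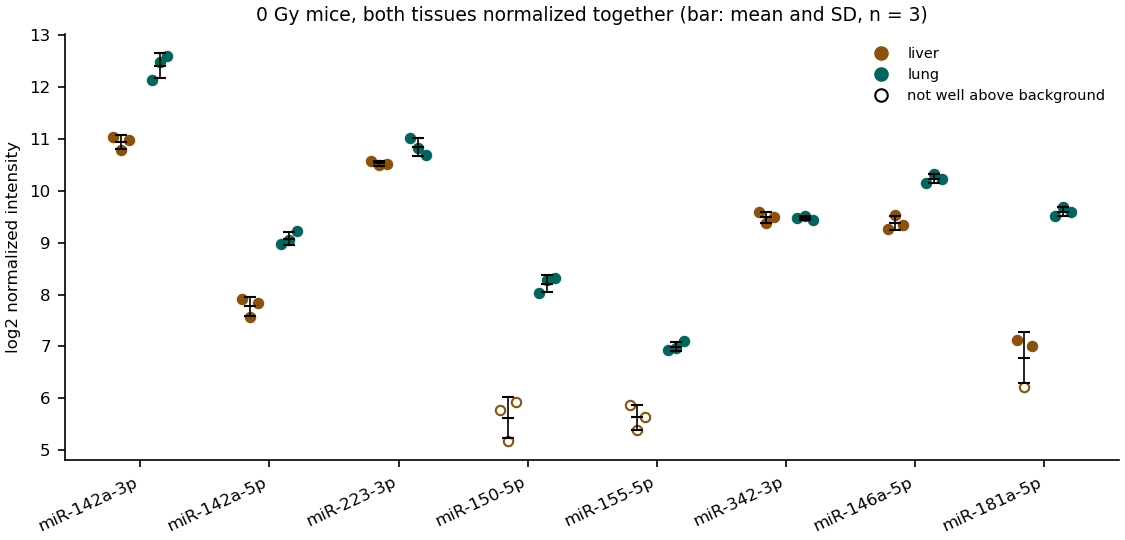
Levels of the 8 miRNAs at 0 Gy in liver and lung (log2 of the intensity of 36 arrays normalized together, vertical axis), with a point for each of the 3 samples and the mean with 1 SD. The lung points lie above the liver points for miR-181a-5p (9.51 to 9.68 against 6.22 to 7.13) and miR-142a-3p, and overlap them for miR-342-3p, which other scalings place higher in lung.

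Whether the organs differed in their response was tested in the same joint fit. At 12 Gy the change of miR-142a-3p was more negative in lung than in liver by 0.85 (difference −0.85, SE 0.171, adjusted p 0.00628; 0.385% of probes passed as lower). Its group means fell from 12.40 to 10.62 in lung and from 10.93 to 10.01 in liver. This difference was −0.79 without the 3 liver arrays (adjusted p 0.144), did not pass with slide as a fixed term (adjusted p 0.455) or as a random block (adjusted p 0.739) or with the sample number as a replicate block (adjusted p 0.0561), and turned to 1.89 under the 75th percentile over all probes. None of the other 7 passed, among them miR-181a-5p (1.12, adjusted p 0.0886) and miR-342-3p (0.65, adjusted p 0.232). Of the 8, 3 had an unadjusted limma p below 0.05, against 153 of 780 probes. The trends of the organs differed for 0 of 8 (1.28% of probes either way), with 1 of them below an unadjusted limma p of 0.05, against 125 of 780 probes. A result that passed in lung and not in liver is thus, for 7 of the 8, not shown to differ between them. Among these 7, miR-150-5p and miR-155-5p were well above background on 0 of 18 liver arrays. No liver change could be measured for them, so these tests cannot decide whether their response differed.

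Since slide and dose went together, the changes were also read within slides, with the highest dose on a slide set against the lowest that had at least 2 arrays there. On slide 3, all 3 lung arrays at 0 Gy lay beside all 3 at 1 Gy, so the 1 Gy changes of miR-142a-3p and miR-142a-5p (−0.66 and −0.75) are within 1 slide. A slide term cannot move these estimates, so that they passed with it (limma adjusted p 0.00621 and 0.00307) is no separate check. In the fit without slide terms, that of miR-142a-3p was lost without the 1 Gy replicates 2 or 12. On slide 4 the 3 lung arrays at 12 Gy were lower than the 2 at 4 Gy by a mean of 0.38 for miR-142a-5p (−0.38), with −0.35 for miR-150-5p, −0.21 to −0.23 for the 5 others in between and −0.04 for miR-181a-5p. On slide 5 the 2 liver arrays at 8 Gy against the 2 at 1 Gy gave −0.62 for miR-142a-3p, −0.49 for miR-223-3p, −0.38 for miR-142a-5p, −0.32 for miR-342-3p, −0.06 for miR-146a-5p and −0.05 for miR-181a-5p. On slide 2 the only liver array at 12 Gy there, against the 3 at 4 Gy, gave −0.49 for miR-142a-3p, −0.30 for miR-223-3p, −0.23 for miR-142a-5p, −0.21 for miR-342-3p, −0.10 for miR-181a-5p and −0.03 for miR-146a-5p. On slide 5 the 1 lung array at 4 Gy against the 3 at 2 Gy gave −0.37 for miR-150-5p, −0.34 for miR-142a-5p and miR-155-5p, −0.26 for miR-142a-3p, −0.18 for miR-342-3p, −0.14 for miR-223-3p, −0.075 for miR-146a-5p and −0.00083 for miR-181a-5p. On slide 1 the 2 liver arrays at 2 Gy against the 3 at 0 Gy gave −0.46 for miR-142a-5p, −0.35 for miR-181a-5p, −0.29 for miR-142a-3p, −0.18 for miR-223-3p, −0.04 for miR-342-3p and 0.04 for miR-146a-5p. Apart from those of slide 3, these within-slide values are differences of means with no test.

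**Figure D3:**
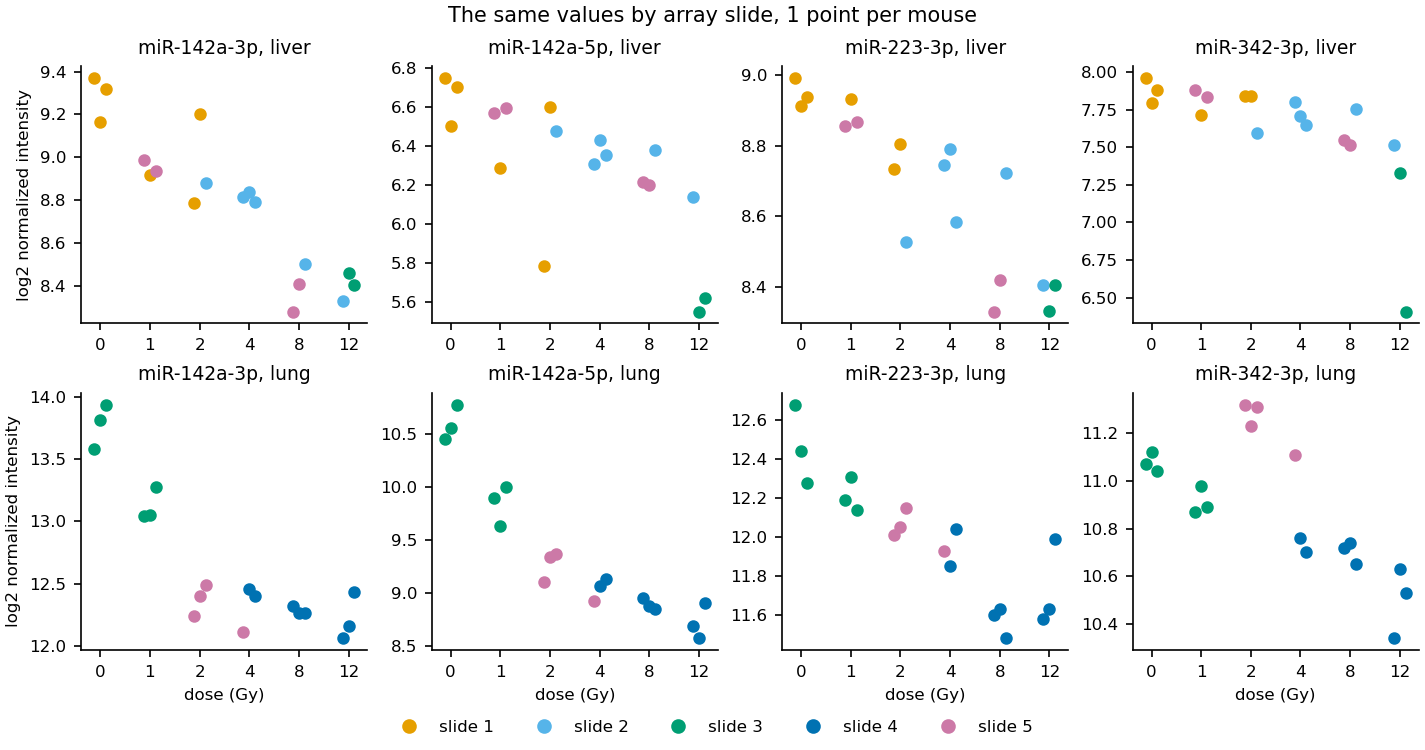
Levels of miR-223-3p, miR-342-3p and both arms of miR-142a (log2 of the normalized intensity, vertical axis) by dose in liver and lung, 1 point for each sample, coloured by the slide of the array. In the lung the colours change with dose, from slide 3 at 0 and 1 Gy to slide 4 at 8 and 12 Gy, and within slide 3 the points of miR-142a-3p lie at 13.04 to 13.28 at 1 Gy, below the 13.58 to 13.94 at 0 Gy.

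With slide terms in the fit, the liver trends of miR-142a-3p (−0.90, limma adjusted p 0.0032) and miR-223-3p (−0.50, adjusted p 0.0401) passed. Samples 16 and 26 at 12 Gy were the only liver arrays on slide 3. The liver 12 Gy changes of that fit therefore rest on 1 array, sample 6 on slide 2, and are given as sizes only. They were −0.95 for miR-142a-3p, −0.47 for miR-223-3p, −0.86 for miR-142a-5p and −0.32 for miR-342-3p. In the lung 0 of 8 trends passed with slide as a fixed term, with −0.49 for miR-142a-3p (adjusted p 0.59), −0.77 for miR-142a-5p (adjusted p 0.4) and −0.70 for miR-150-5p (adjusted p 0.269). With slide as a random block miR-150-5p was called (−1.04, adjusted p 0.022), and miR-155-5p and miR-342-3p passed (−0.60 and −0.53, adjusted p 0.022 and 0.0322). Where both organs shared slide terms in 1 fit of 36 arrays, the lung changes at 12 Gy were −1.94 for miR-142a-3p (adjusted p 0.00336), −2.59 for miR-142a-5p (adjusted p 0.0118), −1.51 for miR-150-5p (adjusted p 0.0148) and −1.001 for miR-155-5p (adjusted p 0.031), and the other 4 did not pass. The values of miR-150-5p and miR-155-5p in that fit use liver arrays on which their probes were never well above background. Slide 3, which held the lung controls, is tied to the other slides there only through the liver 12 Gy samples 16 and 26. Both are among the arrays that stood apart, and miR-142a-5p was well above background on 0 of the 3 liver arrays at 12 Gy. The lung values of that fit thus rest on those samples.

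The 2 probes of each miRNA were compared, since they share their target. In the lung at 12 Gy the second probes read −1.63 for miR-142a-3p, −1.92 for miR-142a-5p and −1.23 for miR-150-5p, and all 3 were called. They read −0.90 for miR-223-3p (adjusted p 0.00174), −0.46 for miR-342-3p (adjusted p 0.00169), −0.44 for miR-146a-5p (adjusted p 0.00112) and −0.36 for miR-155-5p (adjusted p 0.033). For miR-181a-5p the second probe read 0.02 (adjusted p 0.896). Of the 16 lung probes 14 passed as lower (8.14% of all lung probes tested), the 2 exceptions being those of miR-181a-5p. In the liver at 12 Gy 8 of 11 probes passed as lower (8.72% of all liver probes tested). Second probes there read −0.84 for miR-142a-3p (adjusted p 0.000103), −0.87 for miR-142a-5p (adjusted p 0.00695), −0.72 for miR-223-3p (adjusted p 0.000937) and −0.85 for miR-342-3p (adjusted p 0.00146). The probe pairs gave the same direction for every miRNA in the lung on this scale.

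The opposite arms of the same hairpins and the relatives with the same seed were mostly dim. Of 7 opposite arms outside the list 2 were tested in the lung, miR-342-5p (−0.24 at 12 Gy) and miR-181a-1-3p (−0.04), and neither passed. In the liver none was tested. The 4 seed relatives were tested in the lung, where their 12 Gy changes ran from −0.24 to −0.09 with none passing, and miR-181b-5p passed for the trend (−0.32, adjusted p 0.0334). The trend of miR-181a-5p, which is the same as miR-181b-5p at 20 of 23 positions, was 0.08, and the difference between them was not tested.

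Across the 18 lung arrays, the miRNAs that fell most also varied together. The r between levels was 0.977 for miR-142a-3p with miR-142a-5p, 0.977 for miR-142a-5p with miR-150-5p and 0.931 for miR-142a-3p with miR-150-5p. miR-155-5p had 0.87 with miR-150-5p, 0.857 with miR-342-3p and 0.811 with miR-142a-5p, while miR-142a-3p had 0.358 with miR-342-3p and −0.633 with miR-181a-5p. In the liver r was 0.878 for miR-142a-3p with miR-223-3p and 0.713 for the miR-142 arms. These values describe arrays that share dose and slide. Among 347 other lung miRNAs, the one most like miR-142a-3p was miR-340-5p (0.91), followed by miR-3473g (0.84) and miR-202-3p (0.838). miR-130b-3p was the most like miR-142a-5p (0.903), miR-223-3p (0.871), miR-150-5p (0.902) and miR-155-5p (0.89). miR-342-3p was most like miR-181b-5p (0.901), miR-146a-5p most like miR-107-3p (0.811) and miR-181a-5p most like miR-30c-5p (0.829). Among 165 in the liver, miR-20b-5p was most like miR-142a-3p (0.861) and miR-223-3p (0.92), miR-511-3p most like miR-342-3p (0.911) and miR-146a-5p (0.693), miR-18a-5p most like miR-142a-5p (0.87) and miR-674-3p most like miR-181a-5p (0.92).

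The mRNA arrays of the same organs show what leukocyte transcripts did beside these miRNAs. Of 73 listed leukocyte genes 72 were on the array. In the lung 72 were tested, and 10 were called lower at 2 Gy (0.375% of all lung mRNA probes), 28 at 4 Gy (1.22%), 40 at 8 Gy (1.99%) and 44 at 12 Gy (4.27%), with a median change of −1.55 at 12 Gy. In the liver 68 were tested, and 4 were called lower at 2 Gy (0.164% of probes), 9 at 4 Gy (0.623%), 17 at 8 Gy (1.36%) and 21 at 12 Gy (1.33%), with a median of −0.70 at 12 Gy. For the trend 44 were called lower in the lung (4.31% of probes) and 21 in the liver (1.13%). With slide as a fixed term these were 12 and 4, and with an offset of 50 in the background correction the liver count was 11. The mRNA arrays too had slides that went with dose: lung arrays at 0 and 1 Gy lay on slide 4, those at 2 and 4 Gy with 2 of those at 8 Gy on slide 5, and the rest on slide 1, while the liver arrays up to 1 Gy with 2 at 2 Gy lay on slide 2, 2 of those at 12 Gy on slide 4 and the others on slide 3. On the lung mRNA arrays 54.1% to 54.8% of all spots were well above background at 12 Gy, against 59.2% to 64% at 0 Gy. With slide as a fixed term, 75 of 112 single-gene trends below lost the threshold and 2 reversed. In a whole organ, fewer cells of a type and less RNA per cell cannot be told apart, for the miRNAs as for these mRNAs.

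B and T cell genes had the steepest lung trends among the lists. Of all lung mRNA probes 4.31% were called lower for the trend. Of 14 B cell genes 12 were called lower in the lung (median −3.37), led by Ms4a1, the CD20 surface protein (−5.99, adjusted p 1.15e-07), Fcmr, the IgM Fc receptor (−5.86), Fcer2a, the low-affinity IgE receptor (−4.98), and Cxcr5, the follicle-homing receptor (−4.50). Of 13 T cell genes 11 were called lower (median −2.52), with the co-receptor chains Cd8b1 (−6.68, SE 0.699, adjusted p 2.98e-06) and Cd8a (−4.92) and the CD3 chains Cd3d (−4.50) and Cd3g (−4.26). At 0 Gy the lung samples of Cd8b1 spread widely, from 10.31 to 13.85, and all stayed above the 5.05 to 5.30 at 12 Gy. All 9 NK cell genes were called lower (median −1.91), among them Nkg7 (−2.35), Klre1 (−2.10), the granzyme Gzma (−2.08) and the NK receptor Ncr1 (−2.03). Lymphocyte genes thus fell in the same lungs as miR-150-5p and miR-142a, and whether these changes are linked was not tested.

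In the liver 7 of 13 B cell genes were called lower for the trend (median −1.05), against 1.13% of all liver mRNA probes. The trend of Ms4a1 was −3.49 (adjusted p 4.92e-06), and its second probe read −0.38 and did not pass (limma adjusted p 0.276). Fcmr was at −2.92, the B cell coactivator Pou2af1 at −2.30 and the receptor chain Cd79b at −2.06. Of 12 T cell genes 5 were called (median −0.73), with Cd8b1 at −2.30, Cd3d at −1.83, Cd2 at −1.82 and Cd3g at −1.42. Of 8 NK cell genes 4 were called (median −0.92), with Gzma at −1.76, Gzmb at −1.48, Nkg7 at −1.32 and Klrk1 at −1.05. Lymphocyte genes thus fell in the liver too, where miR-150-5p was near background at every dose and could not be followed.

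Genes used by all leukocytes, as the miR-142 hairpin is, were lower in both organs. For the trend 4.31% of all lung mRNA probes were called lower and 11% passed as lower, against 1.13% and 5.47% in the liver. In the lung 9 of 12 pan-leukocyte genes were called lower and 12 passed (median −1.63), with the surface protein Cd52 at −2.41, the actin regulator Coro1a at −2.18 and the tetraspanin Cd53 at −2.10. Their summed level, on a log2 scale, was 16.25 to 16.71 at 0 Gy and 14.51 to 14.99 at 12 Gy. In the liver 3 of 12 were called and 8 passed (median −0.74), with Coro1a at −2.29, Cd52 at −1.21, the GTPase Rac2 at −1.17 and Ptprc (CD45) at −0.89, and the summed level was 13.74 to 13.85 at 0 Gy and 13.02 to 13.10 at 12 Gy. These sums did not overlap between 0 and 12 Gy in either organ.

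Neutrophil genes went both ways in each organ, and macrophage genes did so in the lung and passed as lower in the liver for 5 of 10. miR-223-3p, the myeloid miRNA, passed as lower in both organs by quantile normalization, with its lung trend turned to 0.05 by scaling to the 75th percentile over all probes. Of 14 neutrophil genes in the lung 3 were called lower and 1 higher (4.31% and 2.7% of probes; median 0.23): the granule proteins Camp (−2.70, adjusted p 0.00659) and Ngp (−1.85) and the surface marker Ly6g (−1.19, lost without any 1 of 9 samples, highest adjusted p 0.154) lower, and the protease inhibitor Stfa2l1 higher (1.40), which slide as a fixed term turned to −0.29 and which was lost without the 12 Gy replicate 26 (adjusted p 0.0698). In the liver 1 of 13 was called lower, Camp (−1.15), and 1 higher (0.892% of probes), Lcn2 (1.22), which hepatocytes also make in inflammation (median 0.20). Of 10 macrophage genes in the lung none was called lower, 3 passed as lower (11% of probes; Mrc1 −0.84, Itgax −0.65 and Cd68 −0.51, the last lost without any 1 of 13 samples, highest adjusted p 0.143) and the scavenger receptor Marco was called higher (adjusted p 0.00562; list median 0.05). In the liver 5 of 10 passed as lower (5.47% of probes) and 1 was called, the integrin Itgax (−1.53), with Mrc1 at −0.86 (lost without any 1 of 6 samples, highest adjusted p 0.0708), Csf1r at −0.58 and the Kupffer cell lectin Clec4f at −0.53 (median −0.47). The summed neutrophil level was 16.12 to 16.37 at 0 Gy and 16.62 to 16.81 at 12 Gy in lung, and 14.30 to 14.43 and 14.66 to 15.12 in liver. The summed macrophage level was 15.04 to 15.34 and 14.97 to 15.75 in lung, and 15.02 to 15.13 and 14.46 to 14.52 in liver. Between 0 and 12 Gy the neutrophil sums were thus higher without overlap in both organs, and the macrophage sums lower without overlap in the liver alone. Such a sum adds intensities before the log, so the brightest genes weigh most. At 12 Gy 6 to 9 of the 14 neutrophil genes were well above background in the liver. The lung mRNA arrays at 0 and 12 Gy lay on slides 4 and 1.

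**Figure D4:**
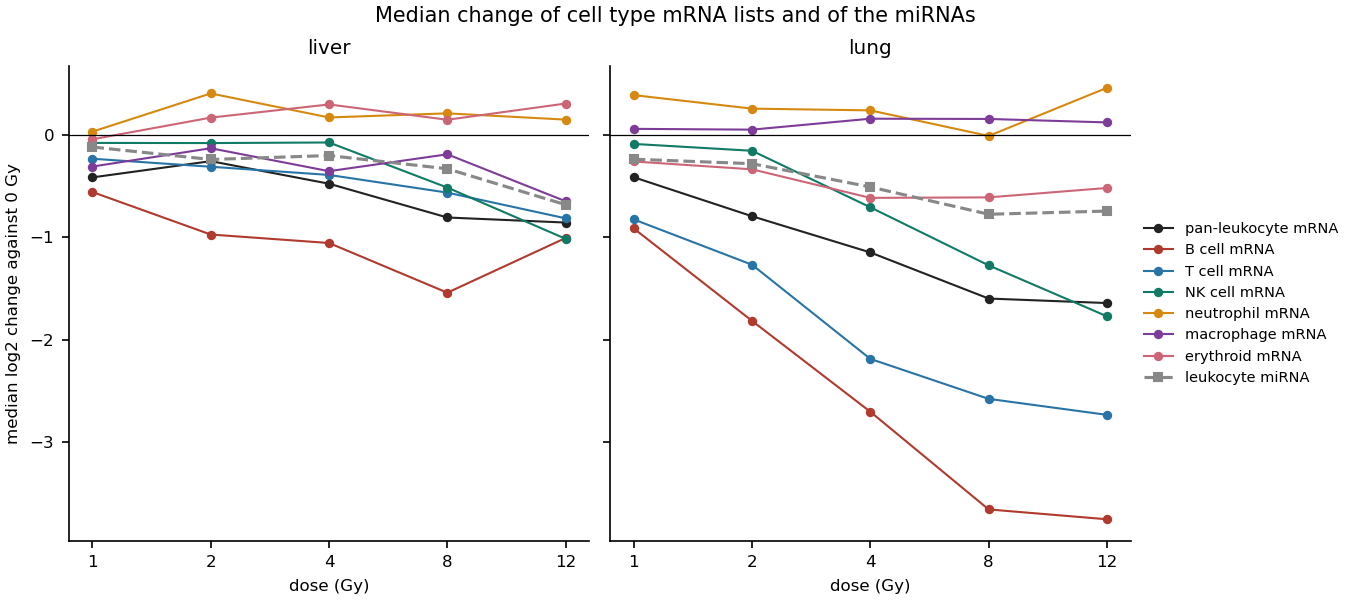
Median change from 0 Gy (log2, vertical axis) of each mRNA list and of the 8 miRNAs (6 in liver) by dose, in liver and lung. In the lung the medians of the B, T and NK cell lists lie lowest at 12 Gy, the neutrophil and macrophage medians lie at 0.46 and 0.12, and the miRNA median lies at −0.74 on the quantile-normalized scale.

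The transcripts that carry these miRNAs could be read for few of them. Of 5 host transcripts listed, 2 are named on the array. Evl, which holds miR-342 and codes for an actin regulator, read 10.07, 10.08 and 10.16 in the liver at 0 Gy and 9.04, 9.12 and 9.26 at 12 Gy, groups well apart. Its liver change was −0.70 at 8 Gy (adjusted p 0.0101) and −0.96 at 12 Gy (SE 0.15, adjusted p 0.00139), with a trend of −0.79 (adjusted p 0.0021). In the lung it read 13.35 to 13.54 at 0 Gy and 12.56 to 13.24 at 12 Gy, with changes of −0.66 at 8 Gy (adjusted p 0.0175) and −0.51 at 12 Gy (adjusted p 0.0255) and a trend of −0.42 (adjusted p 0.0325). The lung trend was lost without the 0 Gy replicates 11 or 21 or the 12 Gy replicate 6 (highest adjusted p 0.114). The second Evl probe had a trend of −0.83 in lung (adjusted p 0.013) and of −0.27 in liver (adjusted p 0.429), so the liver result rests on 1 probe. miR-342-3p itself passed as lower for the trend in both organs by quantile normalization, with its lung trend turned to 0.19 by the 75th percentile over all probes. Mir155hg was well above background on 1 of 18 lung arrays and none in liver, so the host of miR-155 could not be followed. F630028O10Rik, chosen after its values were seen because its span holds Mir223, passed in the liver at 12 Gy (−0.78, adjusted p 0.0231) and for the trend (−0.72, adjusted p 0.00482), and in the lung at 8 Gy (−0.98, adjusted p 0.0404) and for the trend (−0.77, adjusted p 0.0317), though not at 12 Gy (−0.59, adjusted p 0.109).

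Among 8 regulators of blood cells and of these miRNAs, 2 were called lower for the lung trend (4.31% of probes): the lymphoid factor Ikzf1 (−1.85, adjusted p 3.35e-05) and the granulocyte factor Gfi1 (−1.31, adjusted p 0.0151). Their other lung probes read −0.35 and −0.88 for Ikzf1 (limma adjusted p 0.537 and 0.0462) and −0.49 for Gfi1 (adjusted p 0.0822). Nfkb1, an NF-kB subunit, passed as lower there (−0.57, adjusted p 0.0472, lost without any 1 of 14 of the 18 samples) and Cebpb, a myeloid and hepatocyte factor, as higher (0.41, adjusted p 0.0165, and 0.0563 without the 12 Gy replicate 26). In the liver 1 of the 8 passed as higher (4.04% of probes), Cebpb, which was also called (1.07, adjusted p 0.00107), and 3 passed as lower (5.47%): Ikzf1 (−0.66), Runx1 (−0.50) and Cebpa (−0.45). All 3 of these were lost without the 12 Gy replicate 6, with highest adjusted p values of 0.0792, 0.0967 and 0.0587 over the samples left out (Ikzf1 also without the 12 Gy replicate 26, Runx1 without the 0 Gy replicates 1 or 21). Other liver probes read −0.60 and −0.28 for Ikzf1 and 0.15 for Runx1, and did not pass (limma adjusted p 0.351, 0.513 and 0.796). Of 14 known targets in the lung 1 was called lower (4.31% of probes), Ptpn22, a T cell phosphatase targeted by miR-181a (−2.12, adjusted p 7.33e-07). The cytokine inhibitor Socs1, a target of miR-155, passed as lower (−0.85, adjusted p 0.00326), while Adcy9, a target of miR-142a-3p (0.75, adjusted p 0.00175), and Irak1, a target of miR-146a (0.54, adjusted p 0.0123, lost without the 12 Gy replicates 16 or 26), passed as higher. The other lung probes of Irak1 read 0.05 and 0.25 and did not pass (limma adjusted p 0.794 and 0.127). Across all lung mRNA probes 11% passed as lower and 19.7% as higher. The target list had a median trend of −0.04 in the lung, and in the liver 1 of 13 passed, Socs1, as lower (−0.82, adjusted p 0.0109). Targets thus went both ways, and no link with the miRNAs was tested. Of 7 genes of miRNA processing 5 passed as higher in the lung (19.7% of probes; median 0.41), with Dgcr8 at 0.80, Xpo5 at 0.53, Tarbp2 at 0.41 and Drosha at 0.40. Tarbp2 was lost without the 12 Gy replicates 6 or 26 (highest adjusted p 0.116), and Drosha without any 1 of the 3 at 12 Gy (highest adjusted p 0.0975).

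Markers of other cells moved in places beside these results, and their part in them was not tested. In the lung all 7 epithelial genes were well above background at 0 and at 12 Gy, with a summed level of 20.22 to 20.29 and 20.15 to 20.20, although Sftpb was called lower for the trend (−1.19, and 0.38 with slide as a fixed term). The 15 hepatocyte genes, of which 13 to 15 were well above background in the lung at 0 Gy and 12 to 15 at 12 Gy, summed there to 15.41 to 15.48 and 15.02 to 16.17, with Tat called higher (2.63, adjusted p 0.00033). Of 13 erythroid genes 9 to 10 were well above background in the lung at 0 Gy and 5 to 7 at 12 Gy, with sums of 14.59 to 14.66 and 13.90 to 14.19. The share of all spots well above background also fell there, from 59.2% to 64% at 0 Gy to between 54.1% and 54.8% at 12 Gy. Alas2, the haem synthesis enzyme of red cell precursors, was called lower for the trend (−5.75, adjusted p 0.000552). For the trend 3 of 11 erythroid genes tested in the lung were called lower (4.31% of probes). Hemgn, an erythroid nuclear protein, passed as higher (0.73, adjusted p 0.000126), as did 19.7% of probes. Its second probe went the other way and did not pass (−1.145, limma adjusted p 0.0622). Of 4 red cell miRNAs tested in the lung 1 passed as higher at 12 Gy (5.91% of probes), miR-451a (0.38, adjusted p 0.0428), and the values of the 4 ran from 0.27 to 0.55. In the liver all 15 hepatocyte genes were well above background on every array, with sums of 21.88 to 21.91 at 0 Gy and 21.88 to 21.93 at 12 Gy, and no red cell miRNA passed.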

How the data were processed

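Each deposited scanner table gives, spot by spot, a median intensity, the median intensity of the local background and a background-subtracted processed signal from Agilent Feature Extraction, neither logged nor scaled between arrays. The authors' series table was an alternative. Its intensity values are linear, the deposited notes leave its scaling and centring unknown, and its medians on the miRNA arrays ran from 0.01 to 0.386.

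Background correction used normexp (offset 0) on the median intensities. Control spots were left out, and spots marked as outliers were treated as missing. Quantile normalization ran over the arrays of 1 tissue, and a probe's value is the mean log2 over its spots. The software marks each spot as well above background or not, a probe took the mark where a share of 0.5 or more of its spots had it, and probes marked on at least 1 array were tested (390 probes in liver and 762 in lung for miRNA, 38362 and 43979 for mRNA). All p-values come from limma 3.58.1 (R 4.3.3) with Benjamini-Hochberg adjustment over all probes tested in a comparison. Bounds ("at least") set the brighter group's mean against the lowest signal well above background on each dim array, or the dim probe's own value where higher.

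The members and gene lists were chosen with earlier results of these data known. All 8 miRNAs are named with all probes, and from each mRNA list up to 4 genes with the largest trends among those that passed in that tissue. The brightest probe stands for a gene, and other probes of some named genes did not pass. Gene symbols come from the array tables and RefSeq (34566 of 56605 mRNA probes). The number of arrays limits precision, and samples with the same number in both organs were not treated as paired. The scripts were tested on simulated data. Python 3.11.15 with matplotlib 3.10.9 drew the figures.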

Additional observations from a re-analysis of the deposited data

Results flagged for a closer look

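For miR-142a-3p the change at 12 Gy was more negative in lung than in liver by 0.85 on the log2 scale (difference −0.85), which passed when the difference itself was tested in the limma fit of 36 arrays (adjusted p 0.00628). All 3 samples at 12 Gy lay below all 3 controls in each organ. The difference was −0.79 without the 3 liver arrays that stood apart (adjusted p 0.144), and it did not pass with slide as a fixed term (adjusted p 0.455), slide as a random block (adjusted p 0.739) or the sample number as a replicate block (adjusted p 0.0561). Under the 75th percentile over all probes it turned to 1.89.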

How the results depend on the processing

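Under the alternatives other than leaving out a sample, the results of the 8 miRNAs were recomputed 1308 times, of which 1147 kept direction and side of the threshold, 104 lost the threshold, 36 gained it and 21 reversed. The cause of a shift was not tested unless the setting itself shows it.

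Scaling to the 75th percentile over all probes moved the median of all probes at 12 Gy by −1.67 in liver and 0.86 in lung. On the miRNA arrays 7.45% to 16.9% of liver spots and 14.5% to 17.6% of lung spots were well above background. That percentile therefore lay among spots that were not. The lung counts called lower at 2, 4, 8 and 12 Gy and for the trend became 0 (from 2, 3, 3, 3 and 3). In lung miR-223-3p gave 0.092 at 2 Gy, 0.13 at 12 Gy and 0.051 for the trend, miR-342-3p 0.27 at 8 Gy, 0.29 at 12 Gy and 0.19 for the trend, and miR-146a-5p 0.48 at 12 Gy and 0.55 for the trend. The lung minus liver change of miR-142a-3p became 1.89. Of trend differences between organs 6 were called (from 0), with 6.76 for miR-150-5p, 3.24 for miR-155-5p and 2.63 for miR-223-3p. The 75th percentile over detected probes gave 1 called at liver 12 Gy (from 0), 1 change difference and 1 trend difference (each from 0), with change differences of −0.84 for miR-155-5p and −0.78 for miR-142a-5p.

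With the adjusted p alone the liver counts were 1, 2, 4 and 4 at 4, 8 and 12 Gy and for the trend, those in lung 2, 4, 5, 6, 7 and 7 at 1 to 12 Gy and for the trend, and those of neighbouring doses 1 in liver and 4 in lung, with 1 change difference. The liver leukocyte mRNA counts were then 83 summed over doses (from 51) and 34 for the trend (from 21). With an offset of 50 they were 29 and 11. The authors' series values gave 1 called between neighbouring liver doses, 8 called higher in lung at 0 Gy (from 5), miR-342-3p at 2.33 there, 1 change difference with −2.40 for miR-142a-5p, 0.47 and 0.31 for miR-142a-5p in liver at 12 Gy and for the trend, and 0.68 for the liver trend of Klre1 (from −0.78). Both tissues normalized together gave 2 called at liver 12 Gy, 1 for the liver trend and 1 at lung 2 Gy (from 2). The scanner software's total gene signal, chosen after seeing the data, gave 0.59 for miR-342-3p at 0 Gy and 1 change difference.

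Slide as a fixed term left 0 called for the lung trend, and 15 leukocyte mRNAs over liver doses, 4 for the liver trend and 12 for the lung trend (from 44), with Sftpb at 0.38, Stfa2l1 at −0.29 and miR-342-3p at 0.97 at 0 Gy. It could not be fitted for lung doses from 2 Gy up. A random block left 1 for the lung trend. Slide terms shared by the organs, added after seeing the data, gave 1 at liver 8 Gy, 2 at liver 12 Gy, 0 for the lung trend and −0.50 for miR-181a-5p at lung 8 Gy. Leaving out the 3 liver arrays, also added after seeing the data, gave 1 for the liver trend.

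Leaving out 1 sample at a time, the liver 12 Gy count ranged from 0 to 2 (2 without replicate 6), other miRNA counts did not move, and leukocyte mRNA counts ranged from 48 to 56 over liver doses, 18 to 22 for the liver trend, 113 to 136 over lung doses and 41 to 44 for the lung trend. The labels do not say whether liver and lung samples of the same number came from the same mouse. Of 18 same-numbered pairs, correlations of deviations ran from −0.437 to 0.157 (median −0.059), with 2 over 0.1, and 3 samples correlated best with their own number. Such deviations also hold differences between arrays, so these values cannot decide it. With the number as a replicate block the 3 counts of differences between organs did not move, and the change difference of miR-142a-3p (−0.85) had an adjusted p of 0.0561.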
